A study of Homo sapiens with 44 samples.

Results

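The 10 genes described here belong to the lysosome and autophagy pathway of the transcription factor TFEB and were measured in acute myeloid leukemia (AML) cells after RNA interference against the kinases GSK3A and GSK3B. They were TFEB, its relatives TFE3 and MITF, and 7 genes of autophagosomes and lysosomes, WIPI1, SQSTM1, MAP1LC3B, GABARAPL1, LAMP1, LAMP2 and TAX1BP1. The genes were chosen by name: every probe set whose annotation names 1 of them alone was used, which gave 25 probe sets for the 10 genes, out of 22215 probe sets for 12165 genes. No filter on low values was applied, so all 25 were tested.

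Of the 44 arrays, 16 held cells with GSK3A hairpins, 16 held cells with GSK3B hairpins and 12 held cells with a scrambled control hairpin. In each of 4 human AML lines (MOLM-14, HL-60, U937 and THP-1) GSK3A was targeted with the hairpins numbered 5 and 6 (2 arrays each), GSK3B with the hairpins numbered 1 and 2, called B-1 and B-2 here (2 arrays each), and the scrambled hairpin had 3 arrays. All cells, control cells included, grew in RPMI medium, were transduced with a hairpin, were put under puromycin at 1 µg/mL from 48 h after infection, and gave RNA 48 h after that. The replicates are labelled biological with no further detail, so that p-values may measure only the spread between these arrays. Each line is a single established culture, and an RNA level is not a measure of protein, of its place in the cell or of autophagic flux.

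TFEB, TFE3 and MITF belong to the MiT/TFE family of basic helix-loop-helix leucine zipper factors, which bind E-box motifs in promoters of lysosomal and autophagy genes. When nutrients are ample, the kinase complex mTORC1 on the lysosome phosphorylates TFEB and TFE3 and holds them in the cytoplasm, and the phosphatase calcineurin or the loss of mTORC1 activity lets them enter the nucleus. GSK3 is also known to phosphorylate family members. During autophagy a double membrane grows around cargo with the help of WIPI proteins, ATG8 proteins such as LC3 and GABARAP are attached to it, receptors such as SQSTM1 and TAX1BP1 tether the cargo, and the closed autophagosome fuses with lysosomes, whose membrane is rich in LAMP1 and LAMP2.

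The E-box core of these factors, CACGTG, was searched in RefSeq promoter windows (GRCh38.p14, 250 bases before to 50 after each start site). The motif reads the same on both strands, and TCACGTGA, its longer form, holds it. A window was at hand for 9 of the 10 genes (LAMP2 had none), 16 windows in all, and 1 of them, LAMP1, held CACGTG, against 8.77% of 27305 genes with a window. In LAMP1 it began at −192, −176, −159, −142, −28 and −1 relative to the start site. Among the genes of the pathway lists used further on, 22 of 89 with a window held it, 24.7%. Shown are 3 windows that differ in their number of copies: LAMP1 with 6 copies, WIPI1 with none, and RRAGC, a Rag GTPase that recruits TFEB to the lysosome, with 1. Capitals mark CACGTG.
LAMP1 (chr13:113296989-113297288, + strand): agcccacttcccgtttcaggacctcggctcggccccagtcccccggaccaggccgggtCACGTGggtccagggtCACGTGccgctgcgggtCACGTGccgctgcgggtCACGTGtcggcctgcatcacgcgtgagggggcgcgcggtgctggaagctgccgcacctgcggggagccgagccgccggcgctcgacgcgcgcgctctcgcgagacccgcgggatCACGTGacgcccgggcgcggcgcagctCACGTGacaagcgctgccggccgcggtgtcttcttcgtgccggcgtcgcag
WIPI1 (chr17:68457447-68457746, − strand): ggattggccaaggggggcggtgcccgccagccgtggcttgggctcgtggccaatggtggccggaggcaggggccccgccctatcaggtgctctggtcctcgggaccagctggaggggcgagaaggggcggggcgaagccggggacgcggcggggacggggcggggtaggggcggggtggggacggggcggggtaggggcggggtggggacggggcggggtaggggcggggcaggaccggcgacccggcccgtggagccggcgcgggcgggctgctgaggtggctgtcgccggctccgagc
RRAGC (chr1:38859723-38860022, − strand): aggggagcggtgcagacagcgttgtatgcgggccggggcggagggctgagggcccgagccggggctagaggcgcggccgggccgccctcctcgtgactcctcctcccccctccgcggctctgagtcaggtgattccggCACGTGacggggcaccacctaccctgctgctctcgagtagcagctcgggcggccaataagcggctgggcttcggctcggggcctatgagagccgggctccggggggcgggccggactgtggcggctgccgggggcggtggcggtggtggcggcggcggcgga
A match is a description of these letters and not a measured binding site.

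Values are deposited intensities, and changes are differences of log2(intensity + 16) after quantile normalization. This scale understates the change of dim probe sets. Shares of all probe sets whose arrays do not overlap control were counted for the pooled arrays of a target, not for a single hairpin. A change is called where the adjusted p of limma (Benjamini-Hochberg over all 22215 probe sets) is under 0.05, and each gene is read on its brightest probe set unless another is named. Because all comparisons with control in a line share that line's 3 control arrays, changes with GSK3A and GSK3B hairpins are given side by side and were compared directly without control arrays. Arrays lay in plate columns 1 to 6 (24 arrays) or 7 to 11 (20 arrays). In MOLM-14 and U937 the arrays of a column set deviated together from their group means (correlations over probe sets of 0.461 to 0.757 and 0.630 to 0.807), whereas in HL-60 and THP-1 the medians were 0.05 and 0.02. Values with the column set as a block and within each set are given beside the results. Fits within a set used fewer arrays and a simpler model, with added effects of line and hairpin in place of group means. The GSK3B probe set fell by 1.56 ± 0.05 (SE) with the GSK3B hairpins (limma adjusted p = 1.9e-18), and GSK3A fell by 0.09 ± 0.03 on its brighter probe set with the GSK3A hairpins (0.02), where the arrays ran from 31.3 to 46.7 with GSK3A hairpins and from 32.3 to 57.8 in control cells. Pooled over both GSK3A hairpins, they lay below control in HL-60 and overlapped it in the other 3 lines. By hairpin, hairpin 6 lay just below all control arrays in THP-1 (31.8 and 31.3, against 32.3 or more) and MOLM-14 (42.8 and 44.2, against 44.3 or more). Hairpin 5 did so in U937 (39.1 and 37.8, against 39.4 or more). Within the control range were hairpin 5 in THP-1 (39.4 and 41.1) and MOLM-14 (45.4 and 46.66) and hairpin 6 in U937 (41.0 and 46.6). The labelled knockdown of GSK3A was thus weak on this probe set. The lines expressed the pan-leukocyte antigen PTPRC (317 to 696 in control cells) and the myeloid factor CEBPA (1249 to 2326). The myeloid markers FCGR1A (168 to 819) and ITGAM (91.8 to 174) lay lower, and SPI1 (17.5 to 28.1) and CSF1R (11.6 to 40.2) were dim. MPO (5575) and CD14 (262) were high in HL-60, but CD14 was at or under 13.2 in the other lines. MPO was 106 in MOLM-14, 17.7 in THP-1 and 11.4 in U937. T cell, B cell and erythroid markers were dim, with EPOR the brightest of them at 35.7 to 51.5. Among epithelial markers KRT18 was 170 in MOLM-14 and at or under 10.05 in the other lines. The 5 melanocyte markers measured, whose genes MITF controls in pigment cells, were all at or under 20.7 in control cells.

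In control cells the levels of all 10 genes differed between the lines (limma F-test, adjusted p at most 0.003), as did those of 61% of all probe sets. TFEB averaged 119 ± 12.4 in MOLM-14, 106 ± 6.35 in THP-1, 90.4 ± 1.14 in U937 and 29.1 ± 4.46 in HL-60 (SD, n = 3 each). HL-60 thus stood below every other line (adjusted p at most 1.6e-10), MOLM-14 lay above U937 (0.0031), and THP-1 did not differ from either neighbour past the test (0.089 and 0.23). TFE3, by contrast, averaged 105 ± 9.32 in HL-60, 103 ± 12.2 in U937, 89.7 ± 6.45 in THP-1 and 64.4 ± 17.1 in MOLM-14 (SD, n = 3 each), with MOLM-14 below HL-60 and U937 (0.0013 and 0.0031) and no other pair past the test. MITF averaged 79.98 ± 8.65 in MOLM-14, 63.7 ± 5.07 in HL-60, 57.3 ± 12.4 in U937 and 39.8 ± 3.93 in THP-1 (SD, n = 3 each), with THP-1 below the other 3 lines (adjusted p at most 7e-04), MOLM-14 above U937 (0.00088), and neither MOLM-14 and HL-60 (0.1) nor HL-60 and U937 (0.09) separated.

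WIPI1, a phosphoinositide-binding protein of the growing autophagosome membrane, averaged 74.7 ± 14.9 in U937, then 32.1 ± 4.84 in THP-1, 29.1 ± 4.66 in MOLM-14 and, lowest, 25.5 ± 2.82 in HL-60 (SD, n = 3 each). U937 stood above the others (adjusted p at most 2.9e-07), which did not separate. LAMP1 likewise was highest in U937, at 4516 ± 653 in U937, against 3076 ± 225 in MOLM-14, 3005 ± 158 in THP-1 and 2968 ± 163 in HL-60 (SD, n = 3 each; adjusted p at most 8.9e-05 for U937 and at least 0.56 among the others). LAMP2 averaged 1105 ± 45.6 in U937, 812 ± 55.9 in THP-1, 572 ± 34.7 in HL-60 and 522 ± 26.8 in MOLM-14 (SD, n = 3 each), and only HL-60 and MOLM-14 did not separate (0.54). TAX1BP1 averaged 1604 ± 385 in U937 and 1213 ± 23.9 in THP-1, with 1077 ± 54.04 in MOLM-14 beside 1047 ± 55.5 in HL-60 (SD, n = 3 each). Its U937 level was above the other 3 (0.00099 to 0.04), and 1 of the 3 U937 control arrays, at 2048, lay well above the other two, at 1364 and 1401.

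MAP1LC3B, which encodes LC3B, averaged 438 ± 31.9 in THP-1, 237 ± 26.2 in U937, 200.1 ± 12.3 in HL-60 and 189 ± 13.5 in MOLM-14 (SD, n = 3 each). THP-1 stood above the other lines (adjusted p at most 3.8e-07), and these did not separate. GABARAPL1, another ATG8 protein, was dim and averaged 33.7 ± 2.43 in HL-60, 12.8 ± 1.82 in THP-1, 12.2 ± 2.28 in MOLM-14 and, lowest of these means, 7.59 ± 2.35 in U937 (SD, n = 3 each), with HL-60 above the rest (at most 1.4e-08) and U937 below THP-1 (0.022). SQSTM1, or p62, averaged 646 ± 26.4 in HL-60, 624 ± 66.99 in THP-1, 515 ± 87.2 in U937 and 429 ± 57.8 in MOLM-14 (SD, n = 3 each). HL-60 exceeded U937 and MOLM-14 (0.036 and 0.001), and THP-1 exceeded MOLM-14 (0.0033). Thus no single line was highest for all the genes: U937 had the highest mean of WIPI1, TAX1BP1 and both LAMP genes, HL-60 of GABARAPL1, TFE3 and SQSTM1, THP-1 of MAP1LC3B, and MOLM-14 had the highest mean of TFEB and MITF.

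**Figure D1:**
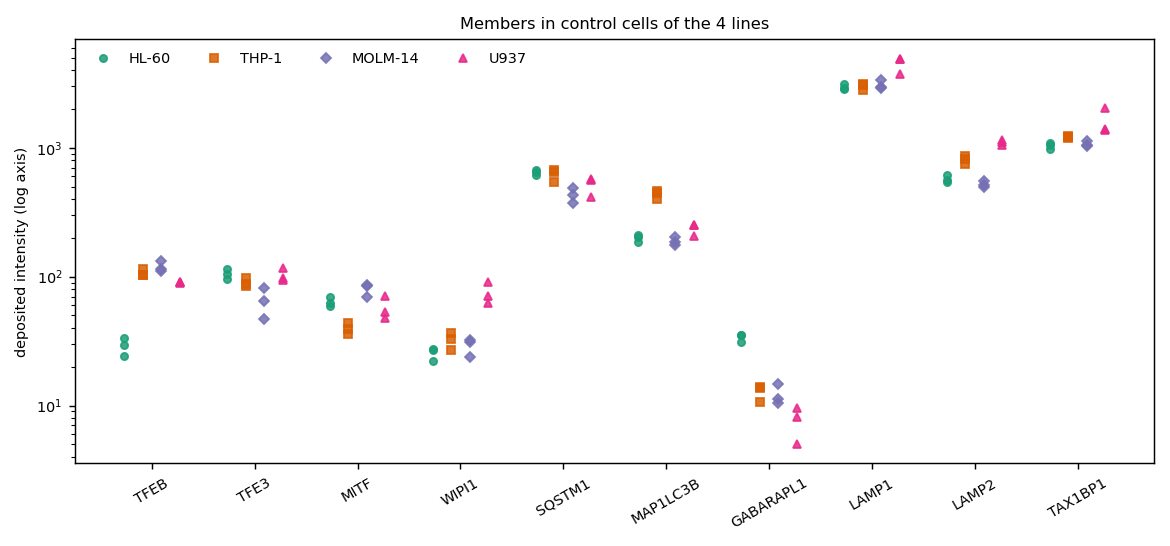
Deposited intensity (log axis) of the 10 genes on their brightest probe sets in control cells; each point is 1 of 3 arrays of a line. TFEB is low in HL-60, WIPI1 is high in U937 and MAP1LC3B in THP-1; heights are to be compared between lines for 1 gene, not between genes.

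With the GSK3A hairpins, averaged over the 4 lines, 4 of the 10 genes rose (TFEB, TFE3, WIPI1 and SQSTM1), 2 fell (MITF and LAMP2) and 4 did not pass the test (limma, adjusted p under 0.05), beside 16.9% of all probe sets (8.56% higher, 8.37% lower). By probe set, 7 of 25 were higher and 3 lower. In a fit with 1 probe set per gene, 2568 of 12165 genes were called with GSK3A hairpins. With the GSK3B hairpins 1 of the 10 genes, TAX1BP1, fell and none rose, beside 2.53% of all probe sets (1.22% higher, 1.31% lower); 3 genes had an unadjusted p under 0.05. Compared directly, GSK3A hairpins gave higher TFEB, TFE3, WIPI1 and TAX1BP1 and lower MITF and LAMP2 than GSK3B hairpins, 6 of 10 beside 17.6% (8.69% higher, 8.88% lower). The median change of the 10 genes was 0.07 with GSK3A hairpins and 0.05 with GSK3B hairpins, and the medians of all probe sets were −0.00085 and 0.00079. In bulk RNA, fewer cells that hold a transcript and less of it per cell cannot be told apart.

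TFEB was higher with GSK3A hairpins than in control cells in every line. In HL-60, TFEB read 69.2 and 71.4 with hairpin 5, 34.2 and 38.8 with hairpin 6, 33.7 and 32.9 with B-1 and 25.1 and 31.1 with B-2, against 29.5, 33.3 and 24.4 in control cells. In THP-1, TFEB read 151 and 155 with hairpin 5, 118 and 132.8 with hairpin 6, 127 and 126 with B-1 and 104 and 112 with B-2, against 103, 102 and 114 in control cells. Both hairpin 5 arrays stood far above the rest in HL-60 and above every other array in THP-1. In MOLM-14, TFEB read 165 and 169 with hairpin 5, 135 and 157 with hairpin 6, 125 and 150.0 with B-1 and 116 and 176 with B-2, against 114, 110.1 and 133.5 in control cells. In U937, TFEB read 119 and 116 with hairpin 5, 106 and 111 with hairpin 6, 88.3 and 99.5 with B-1 and 108 and 111 with B-2, against 89.1, 91.1 and 91.1 in control cells. The GSK3A arrays lay above all control arrays in all 4 lines, which held for 8.77% of probe sets in HL-60, 7.41% in MOLM-14, 6.34% in THP-1 and 5.15% in U937. The pooled arrays of both GSK3B hairpins overlapped the control arrays in each line, although 1 MOLM-14 array with B-2, at 176, was the highest of all 44.

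Over the lines TFEB rose by 0.38 ± 0.05 (log2, SE) with the GSK3A hairpins (limma adjusted p = 8.6e-07), and its means were 184% of control in HL-60, 131% in MOLM-14 and also in THP-1, and 125% in U937. Hairpin 5 gave 0.52 ± 0.05 (4.8e-08) and hairpin 6 gave 0.23 ± 0.05 (0.0046), with hairpin 5 above hairpin 6 by 0.29 ± 0.06 (0.00087). All 8 hairpin-by-line changes were positive, at 0.21 to 0.88. With the GSK3B hairpins the change was 0.13 ± 0.05 (0.17; 0.11 and 0.0409 with the column set as a block), and GSK3A hairpins exceeded GSK3B hairpins by 0.25 ± 0.04 (9.4e-05). Blocked on the column set, the GSK3A change was 0.36 (1.5e-08), and it was 0.34 in columns 1 to 6 taken alone (0.0013) and 0.40 in columns 7 to 11 (0.037). The dimmer TFEB probe set gave 0.21 ± 0.06 (0.011). Taken line by line, HL-60 (0.54 ± 0.09, 0.00022) and MOLM-14 (0.36 ± 0.09, 0.0083) passed the test, THP-1 (0.34 ± 0.09, 0.057) and U937 (0.25 ± 0.09, 0.13) did not, and with the block the p of THP-1 was 0.00437 and that of U937 was 0.0166. The change was not shown to differ between lines (F-test, adjusted p = 0.596).

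**Figure D2:**
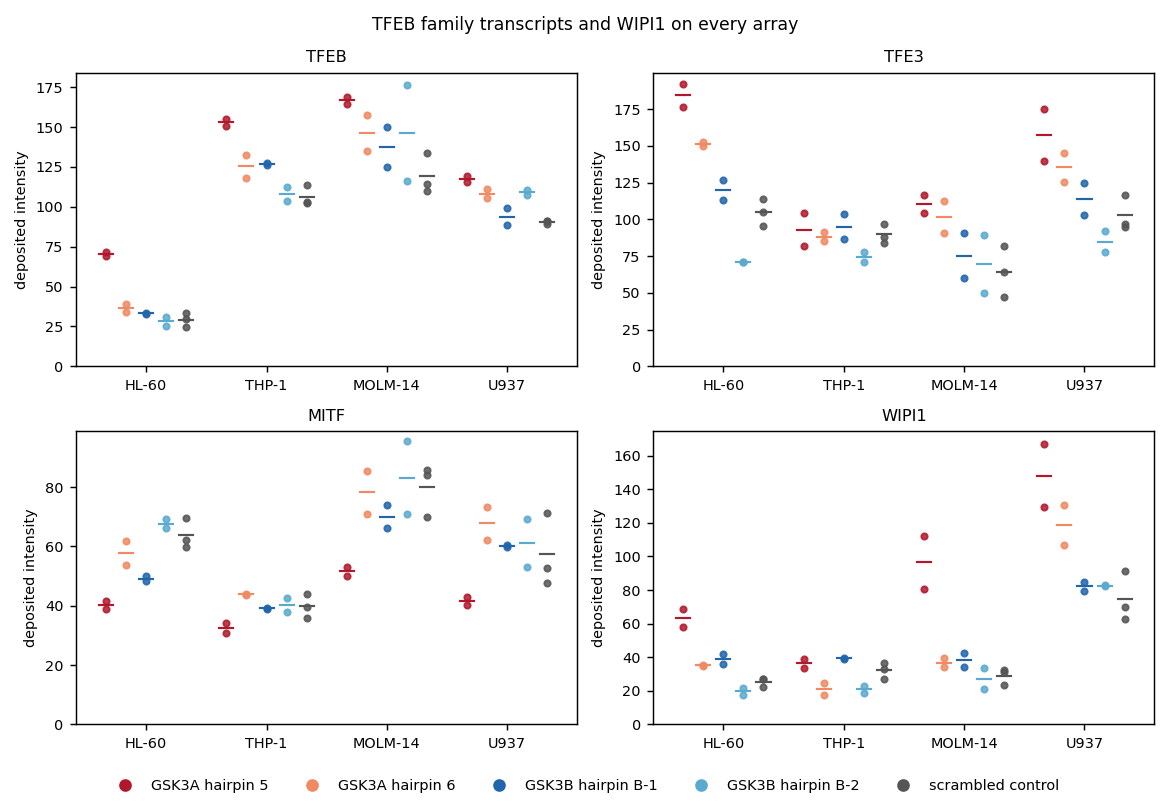
Deposited intensity of TFEB, TFE3, MITF and WIPI1 on every array, by line and hairpin; points are arrays, bars are means of 2 or, for control, 3 arrays. TFEB lies above control with both GSK3A hairpins in every line, TFE3 and WIPI1 do so in HL-60, MOLM-14 and U937 but not in THP-1, and MITF lies below all control arrays with hairpin 5 in every line.

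TFE3, which shares target genes with TFEB, was higher with both GSK3A hairpins in 3 of the 4 lines. In HL-60, TFE3 read 177 and 192 with hairpin 5, 150.1 and 153 with hairpin 6, 127 and 113 with B-1 and 70.9 and 70.9 with B-2, against 105, 114 and 95.3 in control cells. In MOLM-14, TFE3 read 104 and 117 with hairpin 5, 90.4 and 112 with hairpin 6, 59.96 and 90.5 with B-1 and 49.9 and 89.7 with B-2, against 47.3, 64.4 and 81.6 in control cells. GSK3A arrays lay above all control arrays in HL-60, MOLM-14 and U937, which held for 8.77%, 7.41% and 5.15% of probe sets. In U937, TFE3 read 175 and 139.6 with hairpin 5, 145 and 126 with hairpin 6, 124 and 103 with B-1 and 91.8 and 77.7 with B-2, against 96.8, 117 and 94.6 in control cells. In THP-1, TFE3 read 104 and 81.7 with hairpin 5, 91.3 and 85.3 with hairpin 6, 103 and 86.7 with B-1 and 77.5 and 70.8 with B-2, against 88.3, 84.1 and 96.8 in control cells. The THP-1 groups overlapped. The B-2 arrays of HL-60, THP-1 and U937 were below all control arrays of their line, for which no share over all probe sets was counted.

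Over the lines TFE3 rose by 0.41 ± 0.07 with the GSK3A hairpins (limma adjusted p = 8.1e-05), by 0.49 ± 0.08 with hairpin 5 (8.3e-05) and by 0.34 ± 0.08 with hairpin 6 (0.0059), and the 2 hairpins differed by 0.15 ± 0.09 (0.37). The GSK3B hairpins gave −0.04 ± 0.07 (0.92), and GSK3A exceeded GSK3B by 0.45 ± 0.06 (7.2e-06). B-1 and B-2 differed, by 0.35 ± 0.09 (0.013), B-1 alone giving 0.14 ± 0.08 (0.58) and B-2 alone −0.22 ± 0.08 (0.17; 0.0048 with the block). With the block the GSK3A change was 0.41 (6.4e-08), within columns 1 to 6 it was 0.45 (0.00079), and within columns 7 to 11 it was 0.35 and not called (0.14). The second TFE3 probe set gave 0.20 ± 0.06 (0.015). By line the changes were 0.57 ± 0.14 in HL-60 (0.0092), 0.65 ± 0.14 in MOLM-14 (0.002), 0.43 ± 0.14 in U937 (0.08; 0.000549 with the block) and 0.01 ± 0.14 in THP-1. The difference between lines did not pass the F-test (adjusted p = 0.155) but did with the block (0.00342).

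MITF, another family member and the master factor of pigment cells, moved the other way, and with hairpin 5. In HL-60, MITF read 38.9 and 41.6 with hairpin 5, against 59.7, 69.4 and 62.01 in control cells, and in MOLM-14 it read 50.03 and 53.1 with hairpin 5, against 85.8, 70.03 and 84.1 in control cells. In U937, MITF read 40.1 and 42.99 with hairpin 5, against 47.8, 52.8 and 71.4 in control cells, and in THP-1 it read 30.9 and 34.1 with hairpin 5, against 35.98, 43.8 and 39.5 in control cells. These hairpin 5 arrays lay below every control array of their line, a separation for which no share over all probe sets was counted. With hairpin 6, MITF read 71.03 and 85.4 in MOLM-14, 61.8 and 53.8 in HL-60, 62.3 and 73.4 in U937 and 44.1 and 43.5 in THP-1, overlapping the control arrays in each line. MITF fell by 0.18 ± 0.05 over both GSK3A hairpins (limma adjusted p = 0.0067) and by 0.40 ± 0.06 with hairpin 5 (4.8e-06), whereas hairpin 6 gave 0.04 ± 0.06 (0.76) and the hairpins differed by −0.43 ± 0.06 (5.8e-06). The call for both hairpins was lost without HL-60 (−0.13, 0.19), without MOLM-14 (−0.15, 0.0505) and within columns 7 to 11 (−0.21, 0.12), while hairpin 5 alone gave −0.39 within columns 1 to 6 (0.00064) and −0.43 within columns 7 to 11 (0.0072). The GSK3B hairpins gave −0.03 ± 0.05 (0.9). MITF has 1 probe set here, so no other one bears on it.

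WIPI1 had the largest rise of the 10 genes with the GSK3A hairpins, and in THP-1 it was not called. In MOLM-14, WIPI1 read 112 and 80.7 with hairpin 5, 34.00 and 39.4 with hairpin 6, 33.9 and 42.7 with B-1 and 20.97 and 33.6 with B-2, against 32.5, 23.7 and 30.97 in control cells. In HL-60, WIPI1 read 68.9 and 58.03 with hairpin 5, 35.6 and 35.03 with hairpin 6, 35.8 and 42.2 with B-1 and 21.8 and 17.5 with B-2, against 27.3, 22.2 and 26.96 in control cells. Hairpin 5 arrays were the highest in both lines, and hairpin 6 and B-1 arrays also lay above all control arrays. For the pooled GSK3A arrays this held for 7.41% of probe sets in MOLM-14 and 8.77% in HL-60, and no share was counted for B-1 alone. In U937, WIPI1 read 167 and 129 with hairpin 5, 131 and 107 with hairpin 6, 79.7 and 84.9 with B-1 and 82.1 and 83.2 with B-2, against 62.5, 70.2 and 91.3 in control cells. In THP-1, WIPI1 read 33.8 and 38.8 with hairpin 5, 17.3 and 24.5 with hairpin 6, 39.01 and 39.6 with B-1 and 22.7 and 19.00 with B-2, against 26.9, 33.1 and 36.4 in control cells. In THP-1, hairpin 6 and B-2 arrays lay below the control arrays and hairpin 5 arrays overlapped them.

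Over the lines WIPI1 rose by 0.49 ± 0.06 with the GSK3A hairpins (limma adjusted p = 6.8e-07), against 0.06 ± 0.06 with the GSK3B hairpins (0.82), and GSK3A exceeded GSK3B by 0.43 ± 0.05 (1.1e-06). Hairpin 5 gave 0.80 ± 0.07 (2.4e-09) and hairpin 6 gave 0.18 ± 0.07 (0.096), a difference of 0.62 ± 0.08 (1.1e-06). Hairpin 6 passed on the second probe set (0.24 ± 0.07, 0.017) and without THP-1 (0.36, 0.00753). B-1 gave 0.25 ± 0.07 (0.044) and B-2 gave −0.13 ± 0.07 (0.39), a difference of 0.38 ± 0.08 (0.0013). The B-1 call was lost under 9 of 18 other settings, the random block among them (0.25, 0.431). By line the GSK3A change was 0.80 ± 0.12 in MOLM-14 (2.8e-05), 0.70 ± 0.12 in U937 (0.00046), 0.59 ± 0.12 in HL-60 (0.0016) and −0.12 ± 0.12 in THP-1, and these differed (F-test, adjusted p = 0.00239), as did those of 5.56% of all probe sets. Blocked on the column set, the GSK3A change was 0.48 (9.9e-07), and it was 0.59 in columns 1 to 6 taken alone (0.012) and 0.33, not called, in columns 7 to 11 (0.19), where hairpin 5 alone gave 0.58 (0.035).

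SQSTM1, the receptor p62 that binds ubiquitin and LC3, had a small rise with the GSK3A hairpins that rested on hairpin 5 and on MOLM-14. In MOLM-14, SQSTM1 read 775 and 803 with hairpin 5, 521 and 472 with hairpin 6, 468 and 525 with B-1 and 637 and 580.4 with B-2, against 371, 430.4 and 487 in control cells. In THP-1, SQSTM1 read 615 and 531 with hairpin 5, 383 and 482 with hairpin 6, 687 and 663 with B-1 and 518 and 509.7 with B-2, against 548, 674 and 650.1 in control cells. Hairpin 5 arrays were far above the control arrays in MOLM-14, and hairpin 6 arrays were below them in THP-1. In HL-60, SQSTM1 read 747 and 824 with hairpin 5 and 697 and 695 with hairpin 6, against 652, 669 and 617 in control cells, and in U937 it read 813 and 627 with hairpin 5 and 566 and 472 with hairpin 6, against 561, 570.2 and 415 in control cells. The GSK3A arrays lay above all control arrays in HL-60, as for 8.77% of probe sets, and overlapped them in U937. Over the lines the change was 0.17 ± 0.06 (limma adjusted p = 0.048), with 0.38 ± 0.07 for hairpin 5 (0.00036) and −0.03 ± 0.07 for hairpin 6 (0.89), a difference of 0.40 ± 0.08 (0.00059). The call over both hairpins was lost in 10 of 20 other settings, among them with the deposited values left as they were (0.16, 0.0781), without HL-60 (0.17, 0.221) and without MOLM-14 (0.05, 0.783). Blocked on the column set it was 0.19 (0.00076), and it was 0.18 in columns 1 to 6 (0.36) and 0.18 in columns 7 to 11 taken alone (0.52). By line it was 0.55 ± 0.12 in MOLM-14 (0.0023), 0.26 ± 0.12 in U937 (0.31; 0.32 and 0.00685 with the block), 0.19 ± 0.12 in HL-60 (0.47) and −0.31 ± 0.12 in THP-1 (0.37; 0.02 with the block), and the lines differed (F-test, adjusted p = 0.0129). GSK3B hairpins gave 0.11 ± 0.06 (0.53), and in MOLM-14 they gave 0.36 (0.209), or 0.35 with the block (0.0103). Of the other 3 SQSTM1 probe sets, 2 lay at mean intensities of 6.54 and 6.21, near the floor of the arrays, and none was called.

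TAX1BP1, a receptor that links ubiquitinated cargo to ATG8 proteins, was the 1 gene called lower with the GSK3B hairpins, and the fall was larger with B-2 than with B-1. In HL-60, TAX1BP1 read 793 and 831 with hairpin 5, 1023 and 1037 with hairpin 6, 929 and 971 with B-1 and 529.9 and 568 with B-2, against 1095, 1058 and 986 in control cells. In MOLM-14, TAX1BP1 read 821 and 938 with hairpin 5, 1102 and 1207 with hairpin 6, 920.3 and 1001 with B-1 and 517 and 612 with B-2, against 1032, 1061 and 1137 in control cells. The B-2 arrays were the lowest of each line, and the B-1 arrays lay just under the control arrays in both. In U937, TAX1BP1 read 1257 and 1475 with hairpin 5, 1523 and 2046 with hairpin 6, 1417 and 1926 with B-1 and 813 and 1018 with B-2, against 1401, 1364 and 2048 in control cells. In THP-1, TAX1BP1 read 990.4 and 1002 with hairpin 5, 1227 and 1135 with hairpin 6, 1142 and 1151 with B-1 and 859 and 879.7 with B-2, against 1219, 1233 and 1186 in control cells. GSK3B arrays lay below all control arrays in HL-60, THP-1 and MOLM-14, which held for 4.54%, 3.32% and 2.93% of probe sets, and overlapped them in U937.

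Over the lines TAX1BP1 fell by 0.43 ± 0.06 with the GSK3B hairpins (limma adjusted p = 0.00013), by 0.78 ± 0.08 with B-2 (4.9e-08), and changed by −0.08 ± 0.08 with B-1 (0.8; −0.10 and 0.0351 with the column set as a block), so that B-1 exceeded B-2 by 0.70 ± 0.08 (1.1e-06). The other 2 probe sets gave −0.67 ± 0.09 (7.9e-06) and −0.72 ± 0.10 (2.4e-05) with B-2. B-2 alone gave −0.92 in HL-60 (0.00046), −0.94 in MOLM-14 (4e-04), −0.80 in U937 (0.0059) and −0.46 in THP-1, which was not called (0.39). Within columns 1 to 6 and 7 to 11 the B-2 change was −0.82 (6.8e-07) and −0.79 (0.0012), and −0.81 with the block (6.5e-15); for both hairpins it was −0.47 (1e-04), −0.44, not called (0.11), and −0.45 (4.5e-11). Hairpin 5 against GSK3A also lowered TAX1BP1, by 0.30 ± 0.08 (0.0054), on this probe set but not on the other two (−0.19, 0.15, and −0.18, 0.26), and hairpin 6 gave 0.06 ± 0.08 (0.74). GSK3A hairpins exceeded GSK3B hairpins by 0.31 ± 0.06 (0.00029), while their own change against control was −0.12 ± 0.06 (0.23), which passed with the block (−0.15, 0.000138) and without U937 (−0.16, 0.00425).

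**Figure D3:**
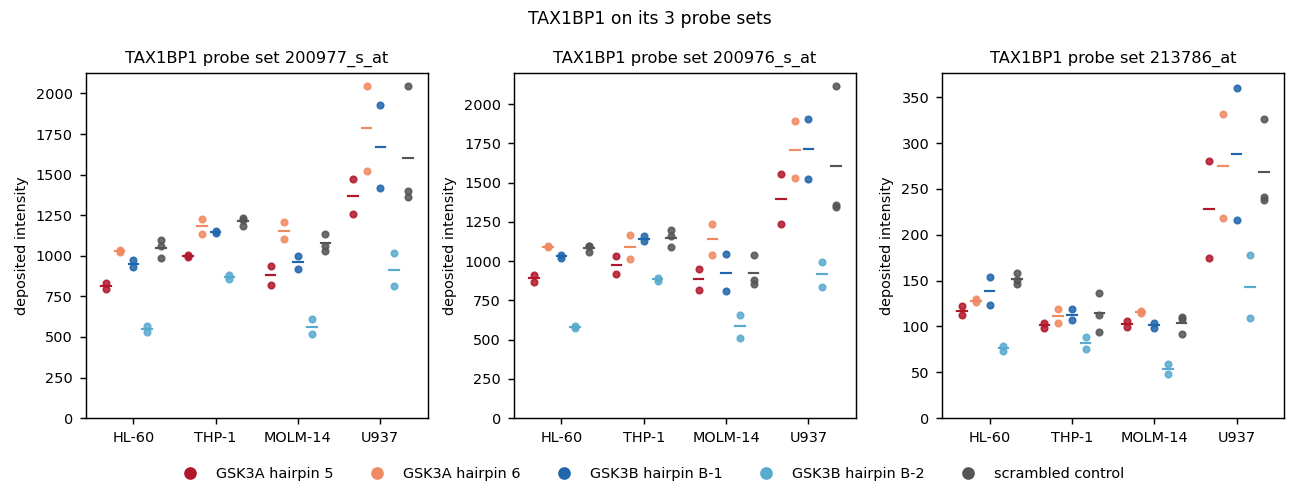
Deposited intensity of TAX1BP1 on its 3 probe sets on every array, by line and hairpin; points are arrays and bars are means of 2 or, for control, 3 arrays. B-2 arrays are low on all 3 probe sets, B-1 arrays lie nearer the control arrays (just below all of them in HL-60, MOLM-14 and THP-1 on the brightest), and U937 arrays of a group spread widely.

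Neither of the 2 ATG8 genes was called over the lines with both hairpins of a target. MAP1LC3B read 292 and 325 with hairpin 6 in THP-1, against 447, 403 and 465 in control cells, which was the only hairpin-by-line change called for it (−0.50, limma adjusted p = 0.04). In MOLM-14, MAP1LC3B read 273 and 194 with hairpin 5, 203 and 188 with hairpin 6, 182 and 152 with B-1 and 193 and 129 with B-2, against 204, 177 and 187 in control cells, and the groups overlapped. Its change was −0.02 ± 0.05 with GSK3A hairpins (0.89), −0.12 ± 0.05 with GSK3B hairpins (0.36) and −0.22 ± 0.06 with B-2 (0.043), the last of which was lost within either column set (0.59 and 0.54). The second MAP1LC3B probe set did not follow the first closely. Their correlation was 0.52 over the 20 group means with each line's mean taken off, a description. The second fell by 0.24 ± 0.07 with the GSK3A hairpins (limma adjusted p = 0.021) and by 0.42 ± 0.09 with hairpin 6 (0.0011).

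GABARAPL1 was dim and read 24.7 and 31.2 with hairpin 5, 13.8 and 17.3 with hairpin 6, 11.5 and 18.9 with B-1 and 10.7 and 12.7 with B-2, against 10.5, 11.2 and 14.8 in control cells in MOLM-14. In HL-60, GABARAPL1 read 40.3 and 46.9 with hairpin 5, 36.7 and 46.2 with hairpin 6, 48.8 and 61.5 with B-1 and 25.7 and 27.5 with B-2, against 35.1, 30.9 and 35.1 in control cells. Hairpin 5 stood out in MOLM-14 and B-1 in HL-60. The arrays of THP-1 and U937 lay between 4.60 and 17.3 for all constructs, where the log scale with its offset compresses any change. Over the lines GSK3A hairpins gave 0.11 ± 0.05 (limma adjusted p = 0.1; 0.0139 with the column set as a block) and GSK3B hairpins 0.04 ± 0.05 (0.81). Hairpin 5 (0.20 ± 0.05, 0.0086) and B-1 (0.21 ± 0.05, 0.022) were called, and B-1 exceeded B-2 by 0.34 ± 0.06 (0.00028). Neither call held in 1 column set alone (0.27 and 0.28 for hairpin 5, 0.75 and 0.59 for B-1), and that of hairpin 5 was lost without MOLM-14 (0.06, 0.61). The GSK3A change differed between lines (F-test, adjusted p = 0.0258), being 0.38 ± 0.09 in MOLM-14 (0.0041), 0.20 ± 0.09 in HL-60 (0.22), 0.04 ± 0.09 in U937 (0.95) and −0.19 ± 0.09 in THP-1 (0.58).

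LAMP1, the lysosomal membrane glycoprotein whose promoter window holds 6 CACGTG copies, was not called against control over the lines on any of its 4 probe sets, and on 1 dimmer probe set B-1 exceeded B-2 by 0.19 ± 0.05 (limma adjusted p = 0.021). Its brightest probe set read 3619 and 3660.3 with hairpin 5 and 3384 and 3700.3 with hairpin 6, against 2922, 2971 and 3334 in control cells in MOLM-14. In THP-1, LAMP1 read 2752 and 2705 with hairpin 5 and 2731 and 2805 with hairpin 6, against 2829.6, 3053 and 3134 in control cells. GSK3A arrays thus lay above all control arrays in MOLM-14 (as for 7.41% of probe sets) and below them in THP-1 (5.14%). In HL-60, LAMP1 read 2743 and 2589 with hairpin 5 and 3057 and 3136 with hairpin 6, against 2840.5, 3152 and 2911 in control cells. In U937, LAMP1 read 4384 and 3960.1 with hairpin 5 and 5508 and 4608 with hairpin 6, against 4872, 4914 and 3763 in control cells. The change over the lines was 0.03 ± 0.05 with GSK3A hairpins (limma adjusted p = 0.8) and 0.05 ± 0.05 with GSK3B hairpins (0.79). In MOLM-14 the change with GSK3A hairpins was 0.25 ± 0.10 (0.096), and 0.22 with the column set as a block (0.000677). The dimmest LAMP1 probe set was called higher there without the block (0.24, limma adjusted p = 0.0457) and with it (0.24, 0.0381). With the block the second brightest was also called higher there (0.21, 0.00724), but the third was not (0.17, 0.527). WIPI1, which rose, has no copy in its window, and RRAGC, with 1 copy, rose by 0.13 ± 0.03 (0.00243). A relation between copies of the motif and changes was not tested.

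LAMP2, the other main glycoprotein of the lysosomal membrane, fell over the lines with hairpin 5 on 1 of its 3 probe sets. The brightest, annotated to the RefSeq transcript of the splice form LAMP2B, read 306 and 275 with hairpin 5, 690.4 and 657 with hairpin 6, 735 and 752 with B-1 and 604 and 575 with B-2, against 563, 611 and 543 in control cells in HL-60. In MOLM-14, this LAMP2 probe set read 273 and 351 with hairpin 5, 645 and 489 with hairpin 6, 554 and 532 with B-1 and 605 and 603 with B-2, against 519, 549.6 and 496 in control cells. Hairpin 5 arrays were the lowest of each line, and all other arrays were at or above 489 in both. In THP-1, LAMP2 read 511 and 511 with hairpin 5, 743 and 925 with hairpin 6, 864 and 845 with B-1 and 768 and 781 with B-2, against 815, 866 and 754 in control cells. In U937, LAMP2 read 797 and 1043 with hairpin 5, 1040.1 and 1323 with hairpin 6, 1129.8 and 1194 with B-1 and 937.2 and 1053 with B-2, against 1055, 1144 and 1116 in control cells. Both hairpin 5 arrays lay below all control arrays in each line, a separation for which no share over all probe sets was counted. The hairpin 6 arrays overlapped or exceeded the control arrays.

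On this probe set LAMP2 fell by 0.26 ± 0.05 over both GSK3A hairpins (limma adjusted p = 0.00018) and by 0.64 ± 0.06 with hairpin 5 (2.1e-09), whereas hairpin 6 gave 0.12 ± 0.06 (0.17), a difference of −0.77 ± 0.06 (4.3e-10). GSK3B hairpins gave 0.08 ± 0.05 (0.59), and GSK3A lay below GSK3B by 0.34 ± 0.04, a log2 change of −0.34 (1.5e-06). Hairpin 5 gave −0.93 in HL-60 (1.2e-06), −0.71 in MOLM-14 (4.4e-05), −0.65 in THP-1 (0.001) and −0.27 in U937 (0.26). The second probe set, which read 288 and 296 with hairpin 5 in HL-60, against 341, 318 and 331 in control cells, was lower with hairpin 5 in HL-60 and THP-1 but gave −0.03 ± 0.08 over the lines (0.88). The last LAMP2 probe set, annotated to the transcript of LAMP2A, gave −0.02 ± 0.05 (0.86), and its lines ran in opposite directions. It read 175 and 168 with hairpin 5, against 208, 221 and 189 in control cells in HL-60 and 203 and 202 with hairpin 5, against 253, 247 and 238 in control cells in THP-1, lower with hairpin 5. In MOLM-14 the LAMP2A probe set of LAMP2 read 115 and 125 with hairpin 5, against 98.9, 103 and 97.5 in control cells, and in U937 292 and 344 with hairpin 5, against 263, 290.4 and 291 in control cells, higher with hairpin 5. Its GSK3A change differed between lines (F-test, adjusted p = 0.00841). Over both GSK3A hairpins these 2 gave 0.06 ± 0.07 (0.64) and 0.05 ± 0.04 (0.49), so the fall was not a fall of every LAMP2 signal. They followed each other (correlation 0.897) more than they followed the brightest (0.370 and 0.483). These correlations are over the 20 group means with each line's mean taken off, and are a description. The GSK3A change on the brightest probe set was −0.26 with the block (2.6e-05), −0.34 in columns 1 to 6 taken alone (0.0075) and −0.15 in columns 7 to 11 (0.62), and for hairpin 5 it was −0.65 (3.7e-10), −0.74 (4.5e-05) and −0.51 (0.061).

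**Figure D4:**
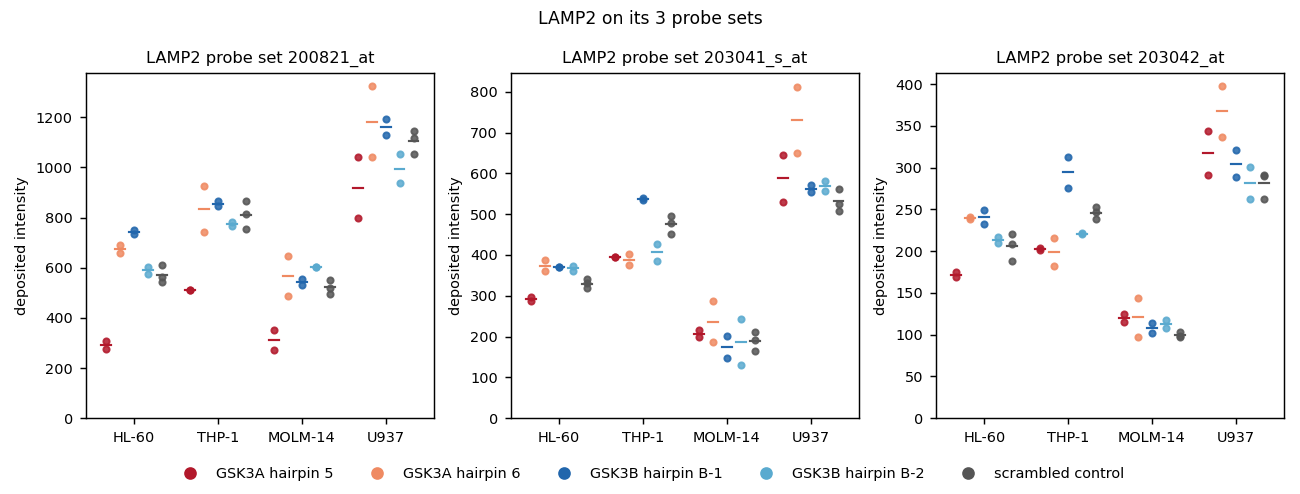
Deposited intensity of LAMP2 on its 3 probe sets on every array, by line and hairpin; points are arrays and bars are means of 2 or, for control, 3 arrays. Hairpin 5 arrays are low on the first probe set, while over the lines the change with hairpin 5 is −0.03 and −0.02 on the other 2.

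The hairpins of a target differed for several of the genes. With hairpin 5, 5 of the 10 genes rose (TFEB, TFE3, WIPI1, SQSTM1 and GABARAPL1) and 3 fell (MITF, LAMP2 and TAX1BP1), beside 17.8% of all probe sets (9.02% higher, 8.8% lower). With hairpin 6, 2 rose (TFEB and TFE3), beside 13.1% (6.78% higher, 6.32% lower). With B-1, 2 rose (WIPI1 and GABARAPL1), beside 3.54% (1.73% higher, 1.81% lower), and with B-2, 2 fell (MAP1LC3B and TAX1BP1), beside 4.79% (2.28% higher, 2.5% lower). Tested against each other, hairpin 5 exceeded hairpin 6 for TFEB, WIPI1, SQSTM1 and GABARAPL1 and lay below it for MITF, LAMP2 and TAX1BP1, 7 of 10 genes beside 13.4% of probe sets (6.85% higher, 6.51% lower). B-1 exceeded B-2 for TFE3, WIPI1, GABARAPL1 and TAX1BP1, 4 of 10 beside 8.35% (4.15% higher, 4.2% lower). With the column set as a block, hairpins 5 and 6 also differed in LAMP1 (0.000729) and MAP1LC3B (0.0374), 9 of 10 beside 24.6%, and B-1 and B-2 also in MITF (−0.14, 0.0308), SQSTM1 (0.17, 0.0196) and MAP1LC3B (0.21, 0.00299), 7 of 10 beside 18.2%. Against control the block added LAMP1 with hairpin 6 (0.10, 0.00617), SQSTM1 (0.21, 0.00509) and TAX1BP1 with B-1, and TFE3 and GABARAPL1 (−0.13, 0.0174) with B-2, beside 24.1%, 10.1% and 12.5% of probe sets called with hairpin 6, B-1 and B-2. TFEB and TFE3 were the 2 genes called with both GSK3A hairpins, and neither hairpin 6 call held within columns 7 to 11 (0.20 for TFEB, 0.31 for TFE3). Within columns 1 to 6 the hairpin 6 change was 0.16 for TFEB, which was not called (0.23), and 0.36 for TFE3 (0.027).

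By line, the GSK3A hairpins raised 3 of the 10 genes and lowered 2 in HL-60, beside 6.91% of probe sets called (3.14% higher, 3.77% lower). They raised 5 and lowered 2 in MOLM-14, beside 12.3% (6.23% higher, 6.07% lower), and raised 1, WIPI1, in U937, beside 4.83% (2.48% higher). None was called in THP-1 (limma), beside 1.36%, and 5 had an unadjusted p under 0.05. With the GSK3B hairpins TAX1BP1 was the 1 gene called in HL-60 (beside 0.693%, 0.392% lower) and in MOLM-14 (beside 0.977%, 0.441% lower). None was called by limma in THP-1 or U937 (beside 0.0495% and 0.14%), and 1 in each had an unadjusted p under 0.05. Calls by line were more numerous with the column set as a block. With GSK3A hairpins THP-1 then had 4 of the 10 genes called (beside 5.18%), TFEB higher and SQSTM1, MAP1LC3B (−0.35, 0.00562) and LAMP2 (−0.32, 0.0242) lower. U937 had 4 (beside 12.4%), TFEB, TFE3, WIPI1 and SQSTM1, all higher. TAX1BP1 joined the lower genes in HL-60 (−0.18, 0.018, beside 15.8%), and MAP1LC3B (0.21, 0.0393) and LAMP1 the higher ones in MOLM-14 (beside 23.1%). The second MAP1LC3B probe set was called in the other direction in MOLM-14 (−0.26, limma adjusted p = 0.00598). LAMP2, lower in MOLM-14 on its brightest probe set (−0.28, 0.0143 with the block), was called higher there on the second (0.28, 0.00775) and on that of LAMP2A (0.25, 0.0103). Both were also called higher in U937 (0.27, 0.0192, and 0.26, 0.0184) and lower in THP-1 (−0.28, 0.0352, and −0.30, 0.0151) with the block. With GSK3B hairpins TAX1BP1 was then lower in all 4 lines, at −0.42 in U937 (9.87e-05; beside 1.12%) and −0.27 in THP-1 (0.0292; beside 0.189%), with 2.94% called in HL-60 and 5.1% in MOLM-14, where SQSTM1 was higher.

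**Figure D5:**
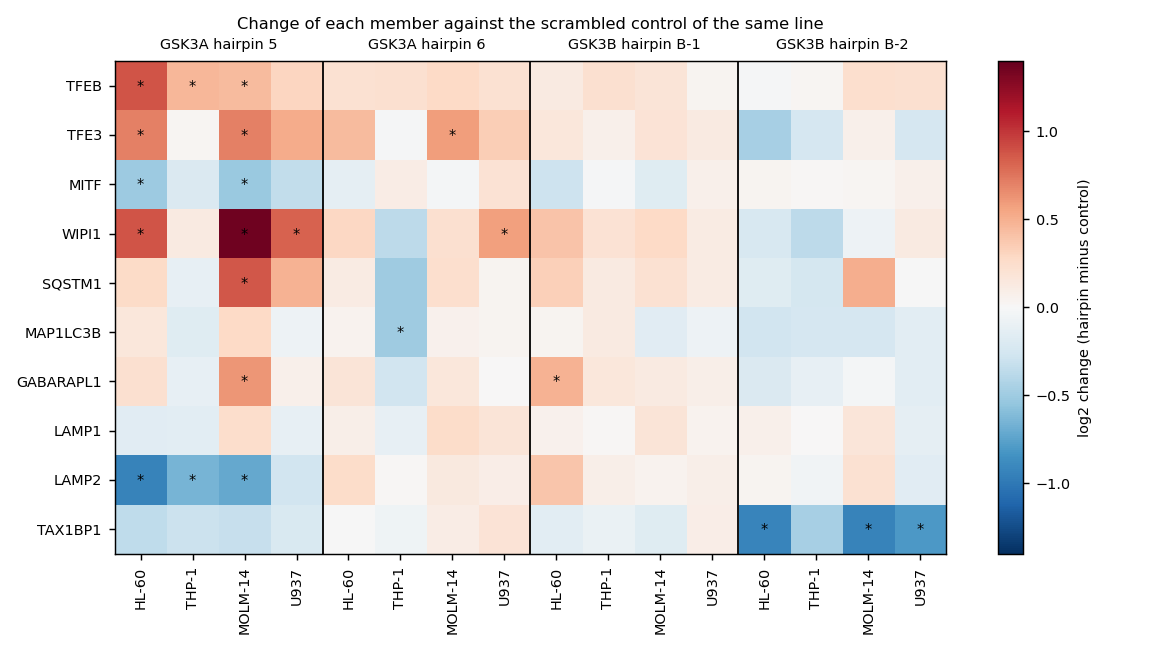
Log2 change of the 10 genes (rows, brightest probe set) with each hairpin against the control cells of the same line (columns); colour gives the change and a star marks adjusted p under 0.05. TFEB is above 0 in all 8 GSK3A columns, at 0.21 to 0.88, and TAX1BP1 is blue in the B-2 columns, −0.94 to −0.46.

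The counts of the lists that follow stand beside 16.9% of all probe sets called with GSK3A hairpins and 2.53% with GSK3B hairpins. Of 20 measured regulators of TFEB (mTORC1, Rag GTPases, folliculin and calcineurin), 5 rose and none fell with the GSK3A hairpins, with a median change of 0.06. RRAGA and RRAGC, Rag GTPases that bring mTORC1 and TFEB to the lysosome, rose by 0.29 ± 0.04 (limma adjusted p = 2.64e-06) and 0.13 ± 0.03 (0.00243), and the calcineurin catalytic subunit PPP3CB by 0.22 ± 0.04 (0.000463). With the GSK3B hairpins 2 rose, RRAGA by 0.21 ± 0.04 (0.00106) and RRAGC by 0.15 ± 0.03 (0.00421), and 1 fell, the other calcineurin subunit PPP3CA, by 0.27 ± 0.07 (0.0243). RRAGA was higher in every line with either target, at 0.18 to 0.37 with GSK3A hairpins and 0.19 to 0.23 with GSK3B hairpins.

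Of 16 genes of autophagosome initiation, 3 rose with GSK3A hairpins and none fell. BECN1, the beclin subunit of the autophagy phosphoinositide kinase complex, rose by 0.20 ± 0.04 (limma adjusted p = 0.000415), its partner UVRAG by 0.13 ± 0.02 (0.000331), and ATG9A, the transmembrane lipid scramblase of the pathway, by 0.21 ± 0.07 (0.042). None of these 16 was called with GSK3B hairpins (limma), and 4 had an unadjusted p under 0.05. Of 11 further ATG8 and conjugation genes 2 rose with GSK3A hairpins, GABARAP by 0.32 ± 0.05 (1.5e-05) and ATG7, the E1-like enzyme of the conjugation, by 0.14 ± 0.04 (0.0211), and none was called with GSK3B hairpins by limma, with 1 at an unadjusted p under 0.05. Of 10 fusion genes 2 rose with GSK3A hairpins, the late endosomal GTPase RAB7A by 0.18 ± 0.04 (0.00269) and the tethering subunit VPS11 by 0.12 ± 0.04 (0.0381), and none was called with GSK3B hairpins by limma, with 4 at an unadjusted p under 0.05.

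Among 11 further receptors of selective autophagy and their partners 3 rose and 1 fell with GSK3A hairpins. The mitophagy receptor BNIP3L rose by 0.49 ± 0.08 (limma adjusted p = 9.6e-05), the ubiquitin-binding adaptor TOLLIP by 0.21 ± 0.04 (2e-04) and the receptor NBR1 by 0.19 ± 0.05 (0.0124). TOLLIP also rose with GSK3B hairpins, by 0.22 ± 0.04 (0.00136), as the 1 gene of the list called there. Of 16 other lysosomal membrane proteins 9 rose and none fell with GSK3A hairpins, with a median change of 0.15, and 4 rose with GSK3B hairpins, with a median of 0.10. The tetraspanin CD63 rose by 0.39 ± 0.04 (3.25e-08) and by 0.19 ± 0.04 with GSK3B hairpins (0.00477), SIDT2 by 0.39 ± 0.05 (6.28e-06; by 0.21 ± 0.05 with GSK3B hairpins, 0.0368) and the sialic acid transporter SLC17A5 by 0.32 ± 0.06 (0.000555) with GSK3A hairpins, and LAPTM4A by 0.13 ± 0.03 (0.0201) and the cystine transporter CTNS by 0.18 ± 0.04 (0.0232) with GSK3B hairpins.

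Of 7 further known targets of the family, 3 rose with GSK3A hairpins and 1 fell. The protease CTSK rose by 0.32 ± 0.06 (limma adjusted p = 0.000173) and the glycoprotein GPNMB by 0.45 ± 0.10 (0.00114), with line values of −0.23 to 0.94 for GPNMB, whereas BCL2, an inhibitor of apoptosis that MITF controls in melanocytes, fell by 0.53 ± 0.11 (0.000552), with line values of −0.68 to −0.24. None of the 7 was called with GSK3B hairpins (limma), with 1 at an unadjusted p under 0.05. These counts are beside 16.9% of all probe sets with GSK3A hairpins and 2.53% with GSK3B hairpins. The lists were read on 1 probe set per gene. A fit with 1 probe set per gene called 2568 of 12165 genes with GSK3A hairpins and 403 with GSK3B hairpins. Myeloid markers moved as well: of 8 measured, 4 rose and 1, MPO, fell with GSK3A hairpins, and 1, MPO, fell with GSK3B hairpins. Their summed intensity ranged from 2051 to 8604 with GSK3A hairpins, 1892 to 8860 with GSK3B hairpins and 1978 to 8961 in control cells, and the part of a change in myeloid state in the values above was not tested. None of the 26 melanocyte, erythroid, T cell, B cell and epithelial markers measured was called over the lines with either target (limma), and 4 with GSK3A hairpins and 0 with GSK3B hairpins had an unadjusted p under 0.05.

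After each line's mean was taken off, the 5 genes whose 20 group means followed those of TFEB most closely were CRYBG1 (Pearson correlation 0.923), PSMB9 (0.912), RGS10 (0.904), SASH1 (0.897) and CALHM2 (0.892). Within the 10 genes, TFEB followed WIPI1 (0.700) and TFE3 (0.698), TFE3 followed WIPI1 (0.816), and MITF ran against WIPI1 (−0.836), SQSTM1 (−0.732) and TFEB (−0.684). LAMP2 on its brightest probe set ran against TFEB (−0.772) and with MITF (0.724). The 20 means share arrays, plate columns and the 2 hairpins of a target, and these values are a description.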

How the data were processed

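RNA of 44 cultures was measured on 1-colour Affymetrix arrays, in 20 groups of line and hairpin. The authors deposited intensities on a linear scale, 3.40 to 12933, for 22277 probe sets. RMA and MAS5 are named per the submitters' processing notes, and which of them gave the table is not given in the sources used here. Samples were grouped by their labels, no column was left unused (0), and no 2 arrays were identical. Of 22215 probe sets that are no array controls, 19724 had 1 gene in the platform annotation, 568 several and 1923 none.

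Array medians differed by 0.154 on the log2 scale, above the limit of 0.1 set for it, so log2(intensity + 16) was quantile-normalized. One model of 20 group means was fitted with limma 3.58.1 in R 4.3.3 (lmFit and eBayes, 24 residual degrees of freedom), and p-values were adjusted by Benjamini-Hochberg over 22215 probe sets, separately for each comparison. The method was tested on simulated data. The number of arrays limits the precision.

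The members and the 7 pathway lists (91 of 109 genes measured) were chosen with earlier results of these data known. Named were the 10 genes, GSK3A and GSK3B, up to 3 genes per list and target with the smallest adjusted p, and the 5 genes most like TFEB. SIDT2 with GSK3B hairpins and the marker genes were named after their values were seen. Same-numbered replicates correlated at −0.688 to 0.790 in U937 (median 0.752), and arrays with different numbers had a median of −0.751. In MOLM-14 these medians were 0.626 and −0.611. The number follows the column set for the hairpins against GSK3A and GSK3B. The second control array of each line, however, lay in column 2, with the first set. The main model did not pair the samples. Promoter windows and sequences are RefSeq's (GRCh38.p14). Alternatives were the scaling, the pseudocount (1 and 64), a filter at a mean intensity of 32, 1 probe set per gene, blocks for replicate, plate columns and group, an intensity trend, other probe sets, and leaving out a line or an array. The block on plate columns for changes within 1 line was chosen after seeing the data.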

Additional observations from a re-analysis of the deposited data

Results flagged for a closer look

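The change with GSK3A hairpins differed between the 4 lines for WIPI1, SQSTM1 and GABARAPL1 on their brightest probe sets, and for LAMP2 on a dimmer one only. The test was a limma F-test on the difference itself, adjusted over all probe sets, and 5.56% of all probe sets passed it. WIPI1 differed on both of its probe sets (adjusted p = 0.00239 on the brighter and 0.0302 on the other), with the change in MOLM-14 at 0.80 and that in THP-1 at −0.12. SQSTM1 differed (0.0129), at 0.55 in MOLM-14 and −0.31 in THP-1. GABARAPL1 differed (0.0258), at 0.38 in MOLM-14 and −0.19 in THP-1. LAMP2 differed on the probe set of the LAMP2A transcript (0.00841) and not on its brightest (0.664). With the plate columns as a block, TFE3 (0.00342), MAP1LC3B (0.00192) and LAMP1 (0.00143) also passed on their brightest probe sets, and 4255 of all probe sets did. With GSK3B hairpins none of the 10 genes passed this limma F-test (adjusted p = 1 for each), beside 0.176% of all probe sets.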

How the results depend on the processing

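Of 1288 values under other settings, 1191 kept their side of the threshold, 69 lost their call, 23 gained one and 5 reversed. Of 3080 values with 1 array left out, 2996 kept their side, 76 lost a call, 8 gained one and 0 reversed. A reversal was counted only where the value was called in either of the fits compared. Values called in neither fit were counted as kept even if their sign changed, as for LAMP1 with GSK3A hairpins (−0.0749 to 0.0810 over the other settings). The reversed values came from other probe sets of the same gene, none of them called: SQSTM1 on its dimmest probe set gave −0.00433 with GSK3A hairpins and −0.00934 with hairpin 5, and LAMP2 with GSK3A hairpins gave 0.0627 on its second probe set and 0.0534 on that of LAMP2A, and the second gave 0.0245 for GSK3A against GSK3B hairpins. The cause was not tested. Fits within a column set and with the group as a random block used added effects of line and hairpin in place of the 20 group means. With GSK3A hairpins 3762 probe sets were called, against 6151 with a block for the plate columns, 589 within columns 7 to 11 and 2244 without HL-60, settings that use fewer arrays in the last 2 cases. For GSK3B the 562 calls became 1581 with the replicate block, 1777 with the plate block, 222 within columns 1 to 6, 6 within columns 7 to 11, 259 with the group as a random block, 176 without HL-60 and 343 without THP-1. For GSK3A against GSK3B the 3902 calls became 6327 with the plate block, 2164 within columns 1 to 6, 1733 within columns 7 to 11 and 2386 without HL-60. Of the 10 genes, 6 called with GSK3A hairpins became 1 within columns 7 to 11, 1 called with GSK3B hairpins became 2 with the replicate block, 2 with the plate block and 0 within columns 7 to 11, and 6 called between the targets became 3 within columns 7 to 11. With 1 array left out the calls ranged from 3342 to 4185 probe sets and 5 to 6 genes with GSK3A hairpins, 427 to 739 and 1 to 2 with GSK3B hairpins (2 without the first MOLM-14 array of B-2), and 3583 to 4165 and 6 to 7 between them. SQSTM1 with GSK3A hairpins lost its call in 29 of 44 fits without 1 array, WIPI1 with B-1 in 25 and MAP1LC3B with B-2 in 18. With the plate block the pathway lists had, rising and falling, 8 and 1 of 20 regulators with GSK3A hairpins (3 and 2 with GSK3B hairpins), 4 and 1 of 16 initiation genes (0 and 3), 4 and 0 of 11 conjugation genes (1 and 0), 5 and 2 of 11 receptors (1 and 2), 5 and 0 of 10 fusion genes (2 and 0), 10 and 2 of 16 lysosomal membrane genes (8 and 0) and 3 and 1 of 7 family targets (2 and 0). These list counts are beside 27.7% of all probe sets called with GSK3A hairpins and 8% with GSK3B hairpins under that block. Signal over background limits GABARAPL1 and the dim SQSTM1 probe sets.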
